A study of Mus musculus with 18 samples.

Results

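The ileum of 18 mice was measured after bone marrow transplantation, 10 of them gavaged with indole-3-carboxaldehyde (ICA) and 8 with its vehicle. The values described here are the mean of the ICA effect in the 2 graft arms, that is, ICA minus vehicle in mice given T cells and ICA minus vehicle in mice given marrow alone, with equal weight. All 18 of the 18 arrays entered, and 22180 genes were tested, each by the probe set with a single symbol and the highest mean.

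Every mouse was a B10.BR recipient that received 11 Gy of total body irradiation on the day before it was given marrow cells of a C57Bl/6 donor from which the T cells had been depleted. One arm of 9 mice also received purified donor T cells and is labelled as developing graft-versus-host disease (GvHD), while the other 9 mice had the marrow alone. In each arm 5 mice were gavaged daily with 150 mg/kg ICA and 4 with DMSO, PEG400 and citric acid, and the ileum was collected on day 21. The recipients were 8 to 12 weeks old at transplant, so the controls share the irradiation, the allogeneic marrow and the gavage, and no untreated ileum was analysed here. Levels are the deposited RMA values on a log2 scale, 1 array per mouse, so an effect of 1 is a doubling, errors of effects are standard errors and the number of mice limits the precision.

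ICA is an indole that gut bacteria release when they break down tryptophan. It binds AhR, the aryl hydrocarbon receptor, a transcription factor that pairs with ARNT and switches on genes such as Cyp1a1. AhR belongs to the same family of basic helix-loop-helix PAS proteins as CLOCK and BMAL1, the pair that drives the circadian clock through E-box sites. The products of their target genes close the loop: PER and CRY proteins block the pair, REV-ERB receptors (Nr1d1, Nr1d2) repress the BMAL1 gene Arntl, and PAR bZIP factors such as DBP and TEF act on D-box sites. In the small intestine this clock times digestion, nutrient transport and cell division over the day.

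The arrays were alike in their distributions. Array medians ran from 6.47 to 6.51, and any pair of arrays correlated at 0.978 to 0.993 across probe sets. The ileal genes Fabp6, a bile acid binding protein, and Slc10a2, the ileal bile acid uptake carrier, were at 11.81 or more and 10.28 or more in every mouse. Car1, a carbonic anhydrase of colon epithelium, was uneven and reached 12.04 in ICA marrow-only mouse 3, where the colonic water channel Aqp8 was also highest at 7.21. ICA marrow-only mouse 1 stood apart in the epithelial genes described below, and list counts that its removal moves by more than 1.5 times are given both ways.

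Over both arms, 3 genes passed the test, all lower with ICA (limma, Benjamini-Hochberg adjusted p under 0.05), which is 0.0135% of the genes tested. They were the clock repressors Per3 and Nr1d1 and the noncoding RNA Gm15998, and each was lower with ICA in both arms. No gene was called higher, while at an unadjusted p under 0.05 there were 921 lower genes (4.15%) and 794 higher ones (3.58%). Over all genes the ICA effects of the arms had no common direction: 11311 genes (51%) had the same sign in both, divided evenly between higher (25.5%) and lower (25.5%). Tested within each arm, 3 genes passed in T cell mice (0.0135%: Per3, Gm15998 and the clock repressor Ciart) and 1 in marrow-only mice (0.00451%: Nr1d1), all lower with ICA. Across genes, which are not independent replicates, the effects of the arms correlated at 0.000632. Genes with no effect in either arm give such values too, so these values do not show that the arms differ. For that difference limma called 0 genes (0%).

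**Figure D1:**
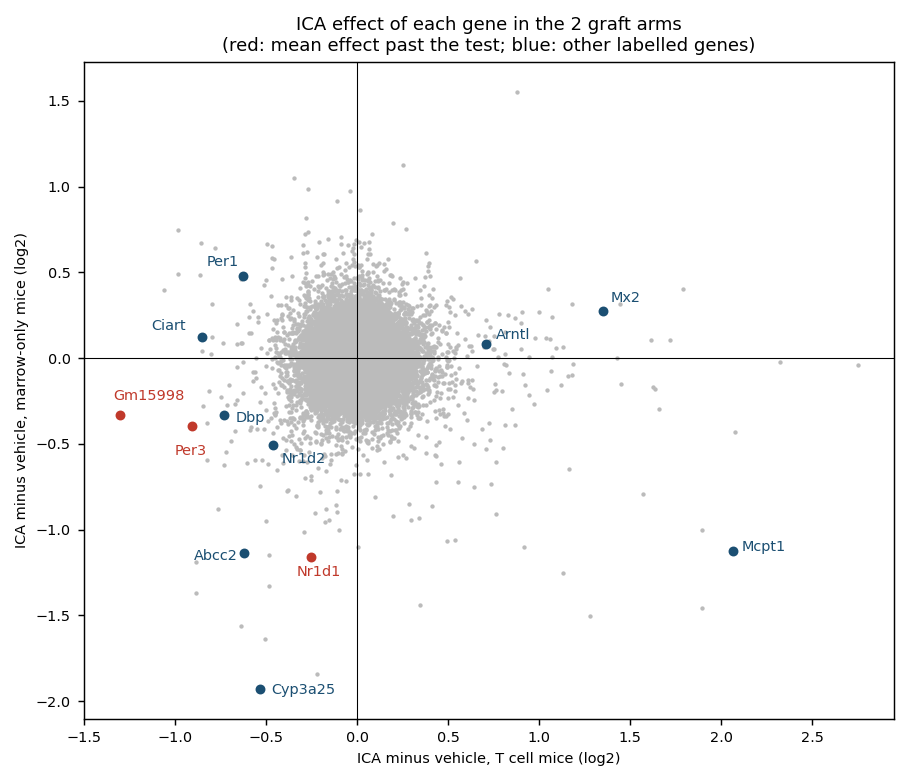
ICA minus vehicle (log2) of each of 22180 genes, for the T cell arm (horizontal) and the marrow-only arm (vertical), with named genes labelled and the 3 genes past the test for the mean effect in red. The cloud has no slope, and the 3 red genes lie at the lower left, where both effects are below 0.

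Per3, a period gene of the clock, had the smallest p of the mean effect. In T cell mice its level was 8.08, 8.43, 8.15 and 8.26 with vehicle and 7.08, 7.56, 7.18, 7.44 and 7.38 with ICA. In marrow-only mice it was at 7.08, 6.86, 7.24 and 6.80 with vehicle and 6.59, 6.64, 6.40, 6.65 and 6.70 with ICA. All ICA mice lay below all vehicle mice of their own arm, in both arms. Per3 fell by 0.65 ± 0.08 on average, 1.57-fold (limma adjusted p = 0.00121). An exact 2-sided permutation of the treatments within arms gave p = 6.3e-05, the smallest that 15876 arrangements can give. Per3 was chosen by its p among 22180 genes, and the permutation p is not adjusted for that choice. The fall was 0.91 in T cell mice (effect -0.91 ± 0.11) against 0.39 in marrow-only mice (effect -0.39 ± 0.11). The difference of the effects was not past the threshold over all genes (limma adjusted p = 0.68, unadjusted 0.0037). Per3 passed the test with any single mouse left out, with an adjusted p (limma) of 0.000771 to 0.00662.

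Nr1d1 encodes REV-ERB alpha, the nuclear receptor that represses Arntl. The marrow-only mice were at 10.31, 9.80, 10.53 and 9.68 with vehicle and at 9.30, 9.05, 8.54, 9.14 and 8.60 with ICA. In T cell mice it was at 10.62, 10.63, 10.49 and 10.37 with vehicle and at 10.47, 10.21, 10.18, 10.28 and 10.22 with ICA. The marrow-only groups did not overlap, and in T cell mice 1 ICA mouse lay above the lowest vehicle mouse. Nr1d1 fell by 0.70 ± 0.11 on average, 1.63-fold (limma adjusted p = 0.0432). Its effect was -0.25 ± 0.16 in T cell mice and -1.16 ± 0.16 in marrow-only mice, the reverse order of that of Per3 (difference 0.43 to 1.38 at 95% confidence, adjusted p = 0.68 by limma over all genes). Thra, whose gene overlaps Nr1d1 on the other strand, had a mean effect of -0.17 ± 0.09. The call of Nr1d1 held in 3 of 18 fits that left 1 mouse out, those without marrow-only ICA mouse 1 or marrow-only vehicle mouse 2 or 4. In the other 15 its adjusted p reached 0.157 (limma).

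The clock genes with the smallest p are set out by their promoters, since the same few DNA motifs are background to how these genes are known to be driven. RefSeq (GRCm38.p6) gives the 250 bases before the start of Per3 (chr4:151044666-151044915, minus strand), Nr1d1 (chr11:98775378-98775627, minus), Dbp (chr7:45704997-45705246, plus), Nr1d2 (chr14:18239107-18239356, minus), Arntl (chr7:113207215-113207464, plus, the first of its listed starts) and Ciart (chr3:95882229-95882478, minus). They are printed 5′ to 3′ on the gene's strand. Capitals mark the E-box CACGTG, the AhR core GCGTG, the D-box TTATGNAA and the REV-ERB and ROR element AGGTCA, each searched on both strands.
Per3: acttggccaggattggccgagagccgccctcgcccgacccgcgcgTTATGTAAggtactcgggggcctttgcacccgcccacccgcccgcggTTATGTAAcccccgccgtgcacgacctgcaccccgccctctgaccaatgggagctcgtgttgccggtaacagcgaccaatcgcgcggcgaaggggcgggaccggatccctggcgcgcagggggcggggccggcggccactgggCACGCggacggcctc
Nr1d1: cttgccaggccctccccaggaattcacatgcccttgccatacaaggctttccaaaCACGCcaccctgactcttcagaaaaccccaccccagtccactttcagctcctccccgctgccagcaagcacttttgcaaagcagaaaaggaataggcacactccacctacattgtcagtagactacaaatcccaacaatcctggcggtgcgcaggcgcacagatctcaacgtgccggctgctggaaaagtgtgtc
Dbp: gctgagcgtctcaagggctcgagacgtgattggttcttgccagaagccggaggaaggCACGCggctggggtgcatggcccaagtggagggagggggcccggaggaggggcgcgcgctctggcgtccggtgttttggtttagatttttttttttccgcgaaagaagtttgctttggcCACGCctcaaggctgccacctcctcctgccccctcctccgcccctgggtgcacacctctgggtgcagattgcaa
Nr1d2: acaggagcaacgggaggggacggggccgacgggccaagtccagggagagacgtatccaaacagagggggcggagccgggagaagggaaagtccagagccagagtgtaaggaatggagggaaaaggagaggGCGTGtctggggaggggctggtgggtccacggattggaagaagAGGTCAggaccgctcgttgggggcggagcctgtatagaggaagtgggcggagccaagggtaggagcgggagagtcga
Arntl: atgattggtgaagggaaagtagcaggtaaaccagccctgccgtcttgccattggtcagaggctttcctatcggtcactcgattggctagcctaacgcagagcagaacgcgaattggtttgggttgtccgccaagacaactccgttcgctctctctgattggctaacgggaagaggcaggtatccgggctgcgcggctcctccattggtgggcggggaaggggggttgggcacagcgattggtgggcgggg
Ciart: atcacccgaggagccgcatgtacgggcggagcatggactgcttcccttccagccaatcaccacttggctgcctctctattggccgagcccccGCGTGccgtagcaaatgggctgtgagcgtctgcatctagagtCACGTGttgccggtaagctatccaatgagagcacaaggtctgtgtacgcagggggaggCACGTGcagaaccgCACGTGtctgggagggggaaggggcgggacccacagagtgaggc

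Per3 held 2 D-boxes, 205 and 158 bases before its start, a motif found in 3.1% of 32851 promoter windows of this length. Ciart, a repressor of CLOCK and BMAL1, held 3 E-boxes, 116, 58 and 44 bases before its start, a motif of 6.0% of windows. Nr1d2 had 1 AGGTCA element at 77 bases, found in 14.0% of windows. The AhR core was in every window but that of Arntl, at 2 places in that of Dbp, and in 28.2% of all windows. Of the listed genes with a window, 7 of 8 clock repressors, 7 of 10 clock output genes and 4 of 5 clock activators held it. So did 6 of 11 AhR targets. Whether the core bears on the ICA effects was not tested. The window of Arntl held none of the 4 motifs. These are matches of letters only.

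Among the other clock repressors none passed the test. Nr1d2, which encodes REV-ERB beta, was at 9.25, 9.42, 9.21 and 9.40 in vehicle and 8.58, 9.01, 8.79, 9.07 and 8.83 in ICA T cell mice. Its marrow-only levels were 8.55, 8.19, 8.82 and 8.17 with vehicle and 8.28, 7.82, 7.66, 8.06 and 7.81 with ICA. The groups were apart in T cell mice and overlapped in marrow-only mice by 1 ICA mouse, number 1. Its effects were near equal, -0.46 ± 0.14 and -0.50 ± 0.14, with a mean of -0.48 ± 0.10 (limma adjusted p = 0.185).

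Of 9 clock repressors measured among the 10 listed, 5 had an unadjusted p under 0.05 and all 5 were lower with ICA, against 4.15% of all genes. Their median mean effect was -0.32, with -0.46 in T cell mice and -0.08 in marrow-only mice, against 0.00259 for the mean effect over all genes. The marrow-only median rested on single mice: it was -0.20 without ICA marrow-only mouse 1 and 0.02 without mouse 3. The 5 were Per3, Nr1d1, Nr1d2, Ciart and Cry2, a cryptochrome (-0.32 ± 0.12). By the exact permutation within arms, Cry2 was at p = 0.0505. Ciart was not lower in both arms: it was at 7.92, 8.21, 7.72 and 8.05 in vehicle and 6.90, 7.06, 7.10, 7.14 and 7.41 in ICA T cell mice, but at 6.51, 6.69, 6.75 and 6.21 against 6.56, 6.54, 6.84, 6.62 and 6.74 in marrow-only mice. It fell in T cell mice by 0.85 (effect -0.85 ± 0.12, limma adjusted p = 0.0079), and its effect in marrow-only mice was 0.12 ± 0.12. The difference between the arms did not pass (limma adjusted p = 0.29), though its p was the smallest of all genes. Per1, another period gene, likewise had effects of -0.63 ± 0.17 and 0.48 ± 0.17, with a mean of -0.08 ± 0.12. Cry1 (0.06 ± 0.07), Bhlhe40 (0.01 ± 0.07) and Bhlhe41 (-0.12 ± 0.10), the last 2 being repressors of E-box genes, had mean effects near 0. Per2 had no probe set of a single symbol.

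Of 11 clock output genes measured among 12, 3 were lower at an unadjusted p under 0.05 (Dbp, Tef and Noct) and 1 was higher (Nfil3), with a median mean effect of -0.14. Over all genes 4.15% were lower and 3.58% higher by that rule. The exact permutation within arms gave p = 0.000567 for Dbp, 0.00309 for Tef, 0.0837 for Noct and 0.052 for Nfil3. Dbp, a PAR bZIP activator whose level follows the clock, was at 8.88, 9.01, 8.66 and 8.88 in vehicle and 7.71, 8.27, 8.01, 8.38 and 8.26 in ICA T cell mice. Without T cells it was at 7.72, 7.26, 7.86 and 7.28 with vehicle and 7.25, 7.50, 6.97, 7.12 and 7.16 with ICA. The groups were apart in T cell mice and overlapped in marrow-only mice, and the mean effect was -0.53 ± 0.10 (limma adjusted p = 0.179). Tef and Hlf, the other PAR bZIP factors, had mean effects of -0.26 ± 0.08 and -0.17 ± 0.09, and Noct, a clock-driven phosphatase of NADP cofactors, of -0.19 ± 0.09. Nfil3, which competes with these factors at D-boxes, had a mean effect of 0.21 ± 0.09, and of 0.13 to 0.25 with 1 mouse left out. The remaining outputs had mean effects from -0.22 (Pdk4) to 0.15 (Nampt), with Tspan4 at -0.14, Wee1 at -0.12, Usp2 at -0.06 and Lonrf3 at 0.07 between them.

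Of the activators, Arntl had the smallest p, and its direction was the opposite of that of the repressors. It was at 8.62, 8.15, 8.50 and 8.23 in vehicle and 9.28, 8.79, 9.13, 9.07 and 9.16 in ICA T cell mice. Marrow-only values were 9.24, 9.32, 9.33 and 9.44 with vehicle and 9.71, 9.06, 9.33, 9.60 and 9.37 with ICA. The groups were apart in T cell mice and overlapped in marrow-only mice. The effect was 0.71 ± 0.12 in T cell mice against 0.08 ± 0.12 in marrow-only mice, with a mean of 0.40 ± 0.09 (limma adjusted p = 0.225). Clock (-0.09 ± 0.06), Npas2 (0.09 ± 0.12), Rora (0.05 ± 0.06) and Rorb (0.08 ± 0.08) had an unadjusted p above 0.05. Clock genes cycle over the day, and the labels used here do not give the hour at which a mouse was sampled, so hour and treatment cannot be told apart.

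**Figure D2:**
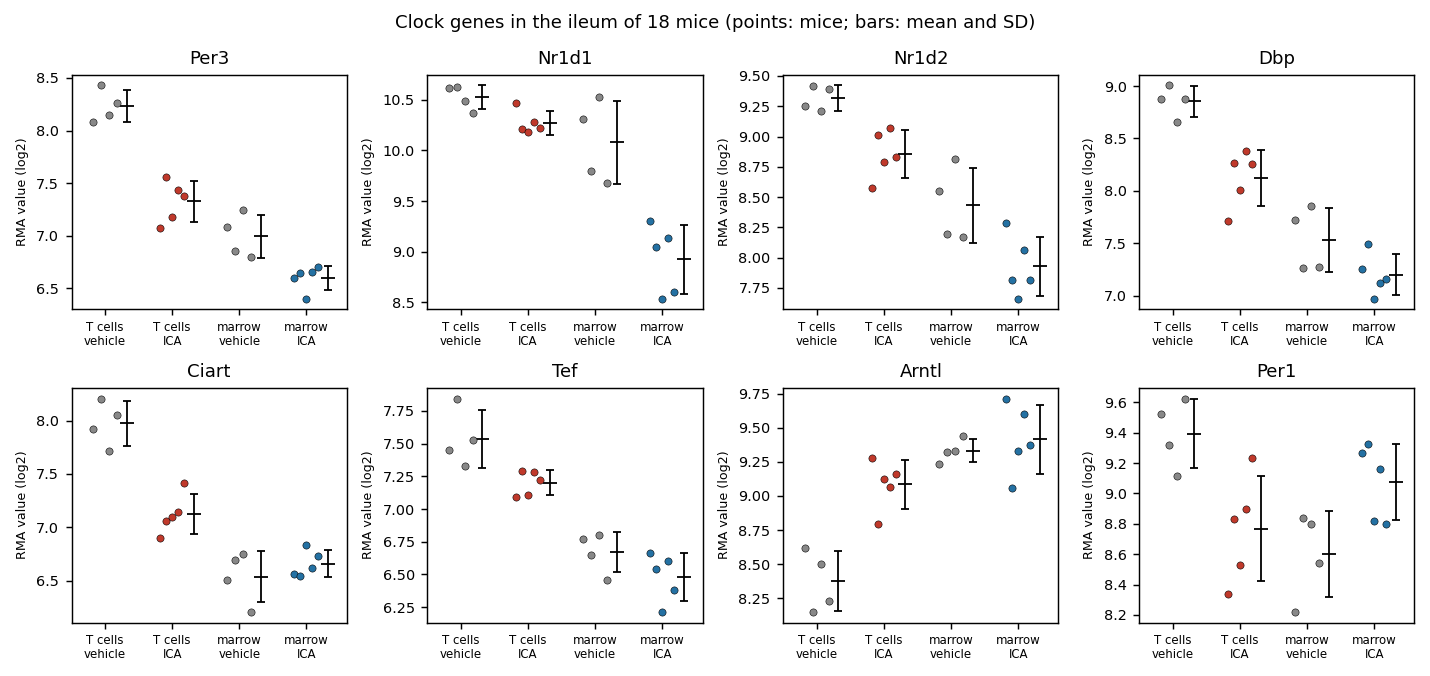
RMA level (log2) of 8 clock genes in each mouse, by graft arm and treatment, with the mean and SD of each group beside the points. Per3 is lower with ICA in both arms without overlap, Nr1d1 differs mostly in marrow-only mice, and the groups of Ciart and Arntl are apart in T cell mice and overlap in marrow-only mice.

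Gm15998, the third gene past the test, is a noncoding RNA whose RefSeq interval lies inside that of Efna3, which encodes an ephrin. It was at 7.67, 8.20, 7.52 and 7.12 in vehicle and 6.51, 6.67, 6.27, 5.94 and 6.23 in ICA T cell mice. In the marrow-only arm it was at 6.86, 6.18, 6.35 and 5.96 with vehicle and 6.01, 6.03, 5.74, 6.17 and 6.09 with ICA. T cell groups were apart and marrow-only groups overlapped. Gm15998 fell by 0.82 ± 0.13 on average, 1.76-fold (limma adjusted p = 0.0432), with effects of -1.30 ± 0.19 and -0.33 ± 0.19. Efna3, named after its value was seen, had a mean effect of -0.13 ± 0.11. The call of Gm15998 held in 4 of 18 fits with 1 mouse left out, those without marrow-only ICA mouse 1, marrow-only vehicle mouse 4, T cell ICA mouse 2 or T cell vehicle mouse 4. Its adjusted p (limma) ranged from 0.011 to 0.157 over the 18.

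The next 21 genes with the same sign in both arms did not pass the test, with adjusted p-values (limma) of 0.179 to 0.275 and folds from 1.21. Of the 24 genes in all, 19 were lower and 5 higher with ICA. Slc2a5, the fructose transporter of the enterocyte's brush border, was at 9.08, 9.0, 9.01 and 8.97 in vehicle and 7.83, 8.88, 8.19, 8.41 and 8.14 in ICA T cell mice. In marrow-only mice it was at 8.18, 7.94, 8.11 and 7.81 with vehicle and 8.07, 7.58, 6.88, 7.60 and 7.19 with ICA. Only mouse 1 of the ICA marrow-only mice reached the vehicle range, and the mean effect was -0.63 ± 0.14.

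Slco2a1, a prostaglandin carrier, had the same effect in both arms (-0.38 ± 0.10 each) and Slc6a8, the creatine transporter, a mean effect of -0.29 ± 0.06. Slc25a48, a mitochondrial carrier, had a mean effect of -0.55 ± 0.12. P2ry2, an epithelial receptor for extracellular nucleotides, was at -0.50 ± 0.10. Mertk, a receptor tyrosine kinase that macrophages use to take up dying cells, was at -0.45 ± 0.10 with nearly equal effects in both arms (-0.46 and -0.44). The list of macrophages and dendritic cells did not follow it: 14 of 20 genes had a mean effect above 0, with a median of 0.12. At an unadjusted p under 0.05, only Mertk was lower in that list (4.15% of all genes were) and only Adgre1 higher (3.58% of all genes). Without ICA marrow-only mouse 1, 4 were higher (Adgre1, Aif1, C1qa and Itgax), against 4.85% of all genes. Mertk was still the only lower one, against 5.73%. Acox2, a peroxisomal oxidase that shortens bile acid side chains, was at -0.45 ± 0.10, Tns4, a focal adhesion protein, at -0.43 ± 0.09, and Selenop, the selenium carrier protein, at -0.34 ± 0.07. Sectm1b (-0.40 ± 0.08), Smim9 (-0.59 ± 0.12), Mpp1 (-0.29 ± 0.06) and Gprin3 (-0.39 ± 0.08) complete the protein-coding genes on that side. Mir26a-1, a microRNA gene within Ctdspl, was at -0.43 ± 0.10, and Ctdspl itself, named after its value was seen, at -0.25 ± 0.07.

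Besides Arntl, the genes higher with ICA were Atp5l, a subunit of ATP synthase (0.33 ± 0.07), Ndufa9, a subunit of respiratory complex I (0.27 ± 0.06), and the interferon-induced genes Zbp1 (0.44 ± 0.09) and Mx2 (0.81 ± 0.18). In Mx2 the T cell mice weighed more, with 1.35 ± 0.26 against 0.28 ± 0.26, and limma's adjusted p for that difference was 0.71.

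By a rule without any model, in 5 genes (0.0225% of those tested) every ICA mouse lay below every vehicle mouse in both arms, and in none (0%) above. These were Per3, Slc6a8, A630066F11Rik (-0.27 ± 0.07), Rufy2, an endosomal adaptor (-0.24 ± 0.07), and Cilk1, a kinase of the primary cilium (-0.15 ± 0.04), the last 3 named after their values were seen. Of these genes Per3 alone passed the test.

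Genes of enterocyte digestion and nutrient transport were mostly lower with ICA in both arms, though none passed the test. Of 19 measured among 21 listed, 18 had a mean effect below 0 (10823 of all 22180 genes did) and 16 were lower in both arms (25.5% of all genes were). Of the 19, 13 had an unadjusted p under 0.05, all lower, against 4.15% of all genes. The median mean effect of the 19 was -0.26, with -0.22 in T cell mice and -0.29 in marrow-only mice. Slc6a19, the neutral amino acid transporter, was at -0.56 ± 0.15, and Slc5a1, the sodium-coupled glucose transporter, at -0.33 ± 0.09. In bulk tissue, fewer cells of a type and less RNA per cell cannot be told apart.

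Averaged over its 19 genes, this list lay between 10.76 and 10.80 in vehicle and between 10.41 and 10.68 in ICA T cell mice, without overlap. The marrow-only mice were at 10.63, 10.55, 10.75 and 10.45 with vehicle and 10.98, 10.03, 9.62, 10.47 and 10.03 with ICA. ICA marrow-only mouse 1 therefore had the highest mean of all 18 mice, while mice 2, 3 and 5 had the lowest. Mouse 3, the lowest at 9.62, is the one with the highest Car1 and Aqp8, the colonic genes. Without it the list still had 13 genes lower at an unadjusted p under 0.05 and 16 lower in both arms, with a median of -0.22 and of -0.19 in marrow-only mice. Of all 22180 genes in that fit, 771 were lower at that p and 5588 were lower in both arms.

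**Figure D3:**
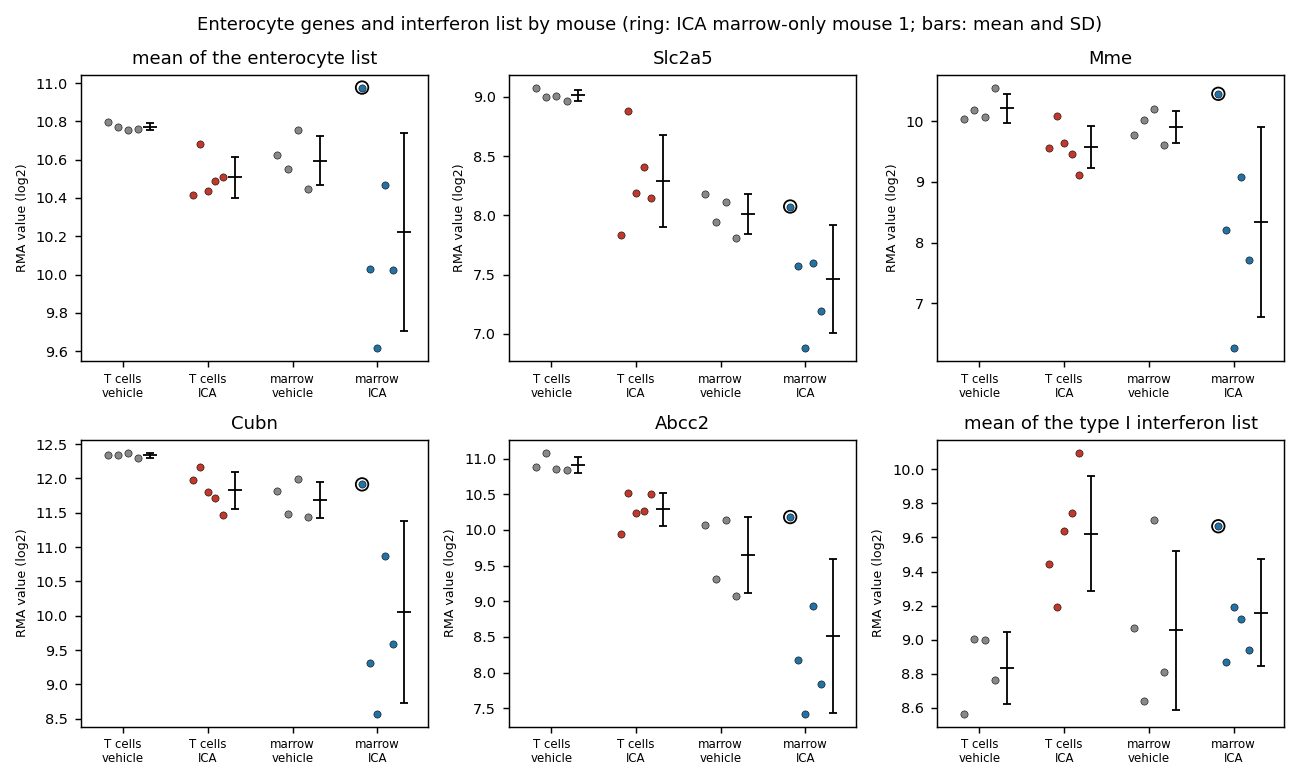
RMA level (log2) in each mouse of the mean of the enterocyte list, of 4 epithelial genes and of the mean of the type I interferon list, with group means and SDs. The ringed ICA marrow-only mouse 1 lies within or above the range of the vehicle mice of its arm in the 5 epithelial panels, where the other ICA marrow-only mice are mostly below them.

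Leaving out that mouse gave 97 genes past the test instead of 3, of which 86 were lower (0.388% of the genes tested) and 11 higher (0.0496%). Leaving out any other single mouse gave 1 to 3. The 97 include the 3 genes called with all mice, and all 97 had the same direction, and an unadjusted p under 0.05, with all 18. Of the 24 genes with the smallest p, 20 were among the 97, Nr1d2, Dbp, Slc2a5 and Mertk included. Both fits share all the other mice, so this overlap is not independent support. In 90 of the 97, mouse 1 lay outside the range of the other 4 ICA marrow-only mice, on the side opposite to the effect. It lay outside that range, on either side, in 46.3% of all genes. Leaving it out therefore favours genes in which it opposed the other mice.

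Without mouse 1, 7 of 19 enterocyte genes were called lower (Alpi, Dpp4, Mme, Sis, Slc15a1, Slc2a5 and Slc6a19), against 0.388% of all genes. They make brush-border enzymes that cut phosphate esters, peptides and sugars, and carriers for peptides, fructose and amino acids. Genes with an Slc symbol, a group picked after the values were seen, made up 14 of the 97 (14.4%) and 361 of all genes tested (1.63%). The genes named next were also chosen after their values were seen. Cubn, the ileal receptor for the intrinsic factor and vitamin B12 complex, lay between 12.29 and 12.37 in vehicle and 11.46 and 12.17 in ICA T cell mice. Its marrow-only levels were 11.82, 11.49, 12.00 and 11.44 with vehicle and 11.91, 9.31, 8.58, 10.86 and 9.59 with ICA. The 4 ICA mice other than mouse 1 lay below every vehicle mouse. Its mean effect was -1.07 ± 0.29 with all mice and -1.30 ± 0.20 without mouse 1 (limma adjusted p = 0.00625). Mme, the brush-border peptidase neprilysin, went from -1.10 ± 0.35 to -1.37 ± 0.25, and Slc5a12, a lactate and monocarboxylate carrier, from -1.13 ± 0.35 to -1.40 ± 0.24. Mouse 3, with the highest Car1 and Aqp8, was the lowest ICA marrow-only mouse for Cubn, Mme (6.256) and Slc5a12 (5.175). For Mme and Slc5a12, mice 2, 4 and 5 of that group also lay below every vehicle mouse of the arm. Of the 11 higher genes, the one with the largest effect was Lrg1, a secreted leucine-rich glycoprotein, at 0.95 ± 0.19.

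Xenobiotic genes were mostly below 0 as well. Of 19 measured among 20, 18 had a mean effect below 0 (10823 of all 22180 genes did) and 11 were lower in both arms (25.5% of all genes were). Of the 19, 6 had an unadjusted p under 0.05, all lower (4.15% of all genes). Without mouse 1 there were 11 such genes, against 5.73% of all genes. None passed with all 18 mice, and 3 did without mouse 1 (Abcb1a, Abcc2 and Fmo5), all lower, against 0.388% of all genes. Abcb1a, the drug efflux pump P-glycoprotein, was at -0.57 ± 0.14. Abcc2, an apical pump for conjugates, was at -0.88 ± 0.26, or -1.09 ± 0.17 without mouse 1. Cyp3a25, a drug-metabolising cytochrome, was at -1.23 ± 0.34, mostly from marrow-only mice (-1.93 ± 0.48 against -0.53 ± 0.48).

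In fat and retinol absorption, 16 of 19 genes had a mean effect below 0, as did 10823 of all 22180 genes. Of the 19, 3 had an unadjusted p under 0.05, among them Apob, the chylomicron scaffold (-0.23 ± 0.07), and Rbp2, the enterocyte retinol binding protein (-0.57 ± 0.23). All 3 were lower, against 4.15% of all genes, and without mouse 1 there were 10, against 5.73%. Slc10a2 was at -0.31 ± 0.10. Fatty acid synthesis pointed the other way, with 9 of 9 genes above 0, as were 11357 of all 22180 genes. The median of the 9 was 0.21 and Fasn, the fatty acid synthase, was at 0.44 ± 0.17, none past the test. Of the 9, 2 had an unadjusted p under 0.05, against 3.58% of all genes, and 6 did without mouse 1, against 4.85%.

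Type I interferon genes had the highest median of the 45 lists with at least 4 genes measured, from the T cell mice. Of 26 measured among 29, all 26 had a mean effect above 0, as did 11357 of all 22180 genes. Of the 26, 19 had an unadjusted p under 0.05, against 3.58% of all genes, and none passed the test. The median of the list was 0.42, with 0.76 in T cell mice and 0.09 in marrow-only mice. Averaged over the 26 genes, T cell mice lay between 8.57 and 9.0 with vehicle and between 9.19 and 10.10 with ICA, without overlap. Marrow-only mice lay between 8.64 and 9.71 with vehicle and between 8.87 and 9.67 with ICA, so these groups overlapped throughout.

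Mx2, an interferon-induced GTPase, was at 6.55, 6.92, 6.51 and 6.99 in vehicle and at 7.95, 7.32, 8.17, 8.39 and 8.63 in ICA T cell mice. Without T cells it was at 7.30, 6.93, 8.26 and 7.30 with vehicle and at 8.38, 7.34, 7.77, 7.73 and 7.40 with ICA. Herc6, the ligase that attaches ISG15, was at 0.55 ± 0.14, with 0.90 ± 0.20 and 0.20 ± 0.20 in the arms. Zbp1, a nucleic acid sensor, was the most even of those named here, with 0.57 ± 0.13 and 0.31 ± 0.13. ICA marrow-only mouse 1 had the highest list mean of the ICA marrow-only mice, 9.67. Without it, Zbp1 passed the test as the single gene of the list, against 0.0496% of all genes called higher. The list's median in marrow-only mice was then -0.03. Without that mouse, ICA T cell mouse 1 and vehicle marrow-only mouse 3 together, 9 of the 26 were called higher (Bst2, Dhx58, Herc6, Isg15, Mx2, Oas2, Stat2, Usp18 and Zbp1), against 0.194% of all genes. The medians were then 0.78 in T cell mice and 0.17 in marrow-only mice. Vehicle marrow-only mouse 3 had the highest list mean of its group, 9.71, so leaving it out raises the marrow-only effect. These 3 arrays were picked from the same data, so the 9 calls are not independent support.

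**Figure D4:**
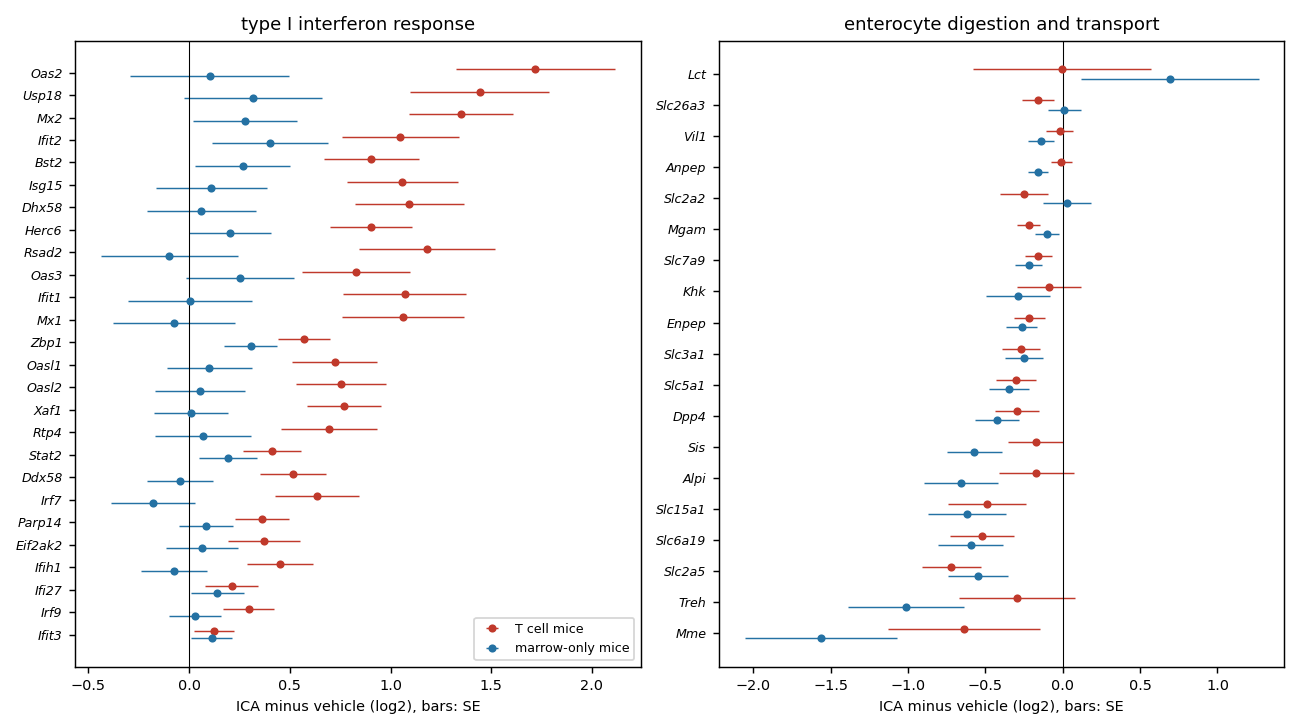
ICA minus vehicle (log2, bars are SE) of each measured gene of the type I interferon list (left) and the enterocyte list (right), drawn separately for the 2 graft arms. On the left the T cell effects lie above the marrow-only ones for all 26 genes, and on the right 16 of 19 genes are below 0 in both arms.

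The AhR target list was apart by treatment in T cell mice and not in marrow-only mice. Its mean lay between 7.06 and 7.08 with vehicle and between 7.15 and 7.19 with ICA in T cell mice, and between 7.01 and 7.13 with vehicle and 6.96 and 7.19 with ICA in marrow-only mice. In T cell mice its group means were 7.07 with vehicle and 7.17 with ICA. Being apart in T cell mice was not particular to this list. The list means of clock activators, clock repressors, clock output genes, enterocyte genes, type I interferon genes, and collagens and matrix did not overlap there either. Of 11 AhR targets measured among 14, none passed the test, 8 were higher and 3 lower, and the median mean effect was 0.06. Of all 22180 genes, 11357 were higher. Cyp1a1, the detoxifying cytochrome that is the standard AhR reporter, was at 5.71, 5.90, 5.70 and 6.00 in vehicle and 6.30, 6.25, 6.16, 6.36 and 6.33 in ICA T cell mice. Marrow-only values were 6.05, 6.21, 6.07 and 5.77 with vehicle and 6.17, 5.95, 5.59, 5.97 and 5.92 with ICA. The groups were apart in T cell mice and overlapped in marrow-only mice. Its effects were 0.45 ± 0.11 and -0.11 ± 0.11, with a mean of 0.17 (95% interval 0.01 to 0.34), and limma's adjusted p was 0.614 for the mean and 0.68 for the difference. The exact permutation within arms gave p = 0.114 for the mean.

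Nqo1, a quinone reductase, was at 0.21 ± 0.09 with nearly equal arms (0.22 and 0.21). Scin, an actin-severing protein, was lower, at -0.50 ± 0.14, from marrow-only mice (-0.90 ± 0.20 against -0.11 ± 0.20), and was called lower without mouse 1 (limma adjusted p = 0.027). The AhR repressor Ahrr was at 0.15 (95% interval -0.01 to 0.32), the cytokine Il22 at 0.23 (-0.01 to 0.46) and Aldh3a1, an aldehyde dehydrogenase, at 0.12 ± 0.08. Tiparp (0.06 ± 0.08), Cyp1b1 (0.04 ± 0.10), Cyp1a2 (-0.02 ± 0.08), Cyp2s1 (-0.08 ± 0.06) and Slc7a5 (0.02 ± 0.07) were near 0. So were Ahr itself (0.04 ± 0.05), its partner Arnt (-0.02 ± 0.06) and the co-chaperone Ptges3 (-0.03 ± 0.13), while Arnt2, a second partner, was at -0.18 ± 0.09. The intervals allow small effects on these genes.

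Genes of other cells in the tissue were also measured. T cell genes were above 0 in 15 of 15, as were 11357 of all 22180 genes. The median of the T cell list was 0.20, made up of 0.01 in T cell mice and 0.41 in marrow-only mice, and none of its genes passed the test. At an unadjusted p under 0.05 there was 1, against 3.58% of all genes, there were 8 without mouse 1, against 4.85%, and 0 without mouse 3. Their mean ran from 6.59 to 7.04 in vehicle and 6.59 to 7.66 in ICA marrow-only mice, and from 7.32 to 8.00 and 7.28 to 7.89 in T cell mice. Cd3d, a chain of the T cell receptor complex, was at 0.29 ± 0.13, and Gzmk, a granzyme, at 0.45 ± 0.19. All 17 cell cycle genes measured had a mean effect above 0, with a median of 0.11, while 11357 of all 22180 genes were above 0. Among the 17 were the mitotic kinases Aurkb (0.20 ± 0.08) and Cdk1 (0.17 ± 0.07). These 2 had an unadjusted p under 0.05, against 3.58% of all genes. Without mouse 1, 6 of the list did, against 4.85%, and without mouse 3 none did, against 671 of all 22180 genes. Genes of a list are measured in the same mice, so they are not separate replicates. Within the ICA marrow-only mice, mouse 1 had the lowest mean of the T cell list and the highest of the enterocyte list. The part of cell make-up in the enterocyte values was not tested.

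Il15, a cytokine that epithelium makes for intraepithelial lymphocytes, was at -0.29 ± 0.09 with all mice and was called lower without mouse 1 (-0.35 ± 0.07, limma adjusted p = 0.0243). Genes with opposite signs in the arms numbered 10869. After Ciart, the smallest p-values of the difference were those of Mcpt1, a mucosal mast cell protease (effects of 2.06 ± 0.45 with T cells and -1.13 ± 0.45 without), and Aldoc, an aldolase (-0.39 ± 0.10 and 0.31 ± 0.10). None of these differences passed the test: limma called 0 genes for the difference (0%), with 1482 at an unadjusted p under 0.05 (6.68%) and a lowest adjusted p of 0.294. All 14 cholesterol synthesis genes measured had opposite signs, with medians of -0.25 in the T cell arm and 0.25 in the other arm.

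**Figure D5:**
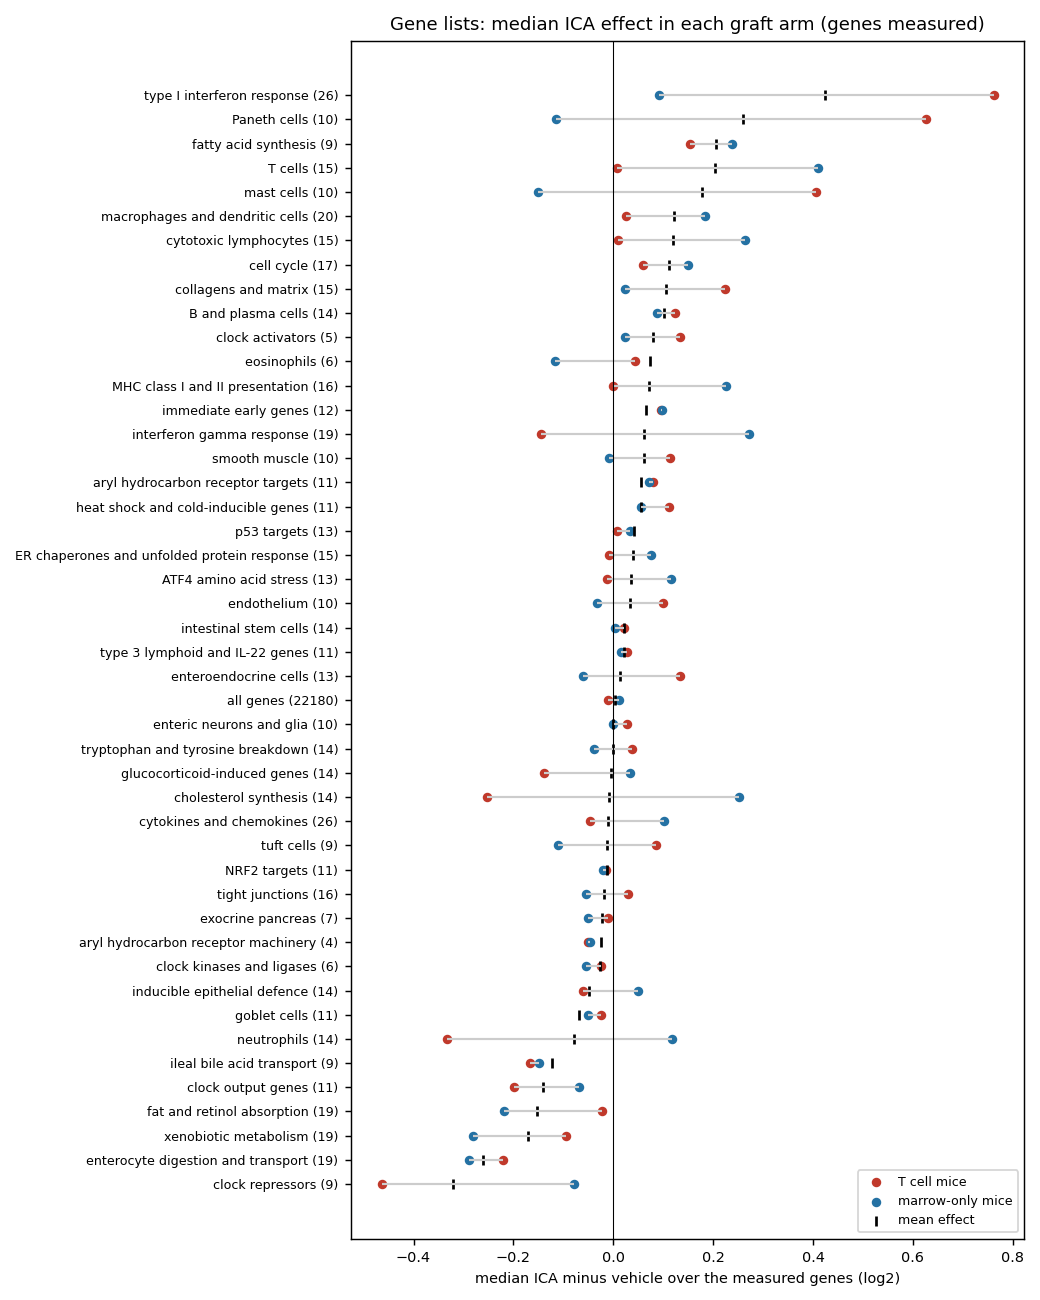
Median ICA minus vehicle (log2) over the measured genes of each list, for either graft arm and for the mean effect, with all 22180 genes as a reference. The lists of clock repressors, enterocyte genes and xenobiotic genes are lowest, the type I interferon list is highest, and for many lists the arms lie on opposite sides of 0.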

How the data were processed

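Total RNA of the ileum of 18 mice was hybridised to Affymetrix whole-transcript arrays, 1 per mouse, after biotin labelling, per the labels' protocols. The deposited values, taken as log2 from their range of 1.29 to 14.08, were made with RMA, per the submitters' processing notes, which also name Partek and GenomeStudio. Any further scaling or centring is not given in the sources used here.

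Of 41345 probe sets, 23521 had 1 gene symbol, 1814 several and 16010 none in the platform annotation. Each of 22180 genes was represented by its 1-symbol probe set of highest mean, with no filter. limma 3.58.1 (R 4.3.3) fitted a mean for each of the 4 groups (5 ICA and 4 vehicle mice per arm) with a trended prior variance. The mean ICA effect, the effect in each arm and their difference were tested 2-sided with Benjamini-Hochberg adjustment over all genes and called at an adjusted p under 0.05. The script was tested on simulated data. The labels number mice as biological replicates and give no batch.

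Named were the genes called or with the smallest p that had the same sign in both arms (24 in all), every clock and AhR gene listed, up to 3 further genes per list, and the 3 opposite-sign genes with the smallest p for the difference; for length, most of the further genes are given in the list counts only. The genes, the 46 lists and the comparison were chosen with earlier results of these data known. Of 633 different listed genes 573 were measured. Promoters are from RefSeq (GRCm38.p6). Same-numbered mice of different groups deviated together no more than others in the median (correlation 0.00186 against -0.00426 over 25 same-number pairs). The same-number values ran from -0.142 to 0.201. A median cannot show whether some numbers share a batch, and the main model did not use the numbers as pairs. Alternatives were a replicate block, an additive model, each mouse left out, 3 arrays left out, other normalizations, filters, probe set rules, variance priors and array weights. Genes named in the text were also tested by the exact permutation within arms. List counts without ICA marrow-only mouse 1 or 3 were added after seeing the data.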

Additional observations from a re-analysis of the deposited data

Results flagged for a closer look

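Of 340 sets of values checked (the named genes and 4 list means in each group), 26 (7.6%) held a mouse farther from the others than Dixon's 95% limit, which chance passes in about 1 in 20. No gene had a difference of ICA effects between the arms past the test, and no unnamed probe set passed it.

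In vehicle T cell mice, mouse 2 was lowest for Slc5a1 (11.33), Cdk1 (9.25) and Nfil3 (7.43) and highest for Abcc2 (11.08), and mouse 4 was lowest for Ahrr (5.41) and highest for Cyp1b1 (7.23). In ICA T cell mice, mouse 1 was highest for Slc25a48 (9.29) and Cyp3a25 (6.91) and lowest for Mcpt1 (5.92), Arnt (9.55) and Cyp1b1 (6.35). Mouse 2 of that group was highest for Mir26a-1 (6.06), Apob (12.71), Hlf (7.20) and Ptges3 (6.57), and mouse 3 was lowest for Nfil3 (7.82).

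In vehicle marrow-only mice, mouse 3 was highest for Cry2 (7.97), Arnt2 (7.17) and Pdk4 (8.81) and lowest for Rorb (5.51). Mouse 1 was highest for Tns4 (9.96) and lowest for Ptges3 (5.77), and mouse 4 was lowest for Sectm1b (11.74). In ICA marrow-only mice, mouse 2 was lowest for Rufy2 (7.04), Wee1 (8.10) and Clock (10.30). ICA marrow-only mouse 1, whose removal moves the count of called genes most, was not among these.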

How the results depend on the processing

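For the mean effect 3 genes were called. The count was 1 with an additive model, with all probe sets, without the variance trend and with a robust prior, 5 with array weights, 106 with 3 arrays left out (63 lower, 43 higher; ICA marrow-only mouse 1, ICA T cell mouse 1 and vehicle marrow-only mouse 3, which an earlier analysis of these data found to stand apart), and 1 to 97 with 1 mouse left out. For T cell mice it was 39 and 13 (3 arrays left out, array weights) and 1 to 9, against 3. For marrow-only mice it was 9 with 3 arrays left out, 0 with all probe sets or a robust prior, and 0 to 119, against 1. For the difference it was 3 with 3 arrays left out and 0 to 2, against 0. Per3 kept its call in every alternative run, while Nr1d1 and Gm15998 lost theirs with the additive model, all probe sets, no trend and the robust prior. The labels do not say whether mice of the same number belong together. A replicate block left 0 genes called in marrow-only mice, took the call of Nr1d1 (adjusted p = 0.188 by limma) and left the other counts within 1.5 times. For 7 named genes with an unadjusted limma p under 0.05, the exact permutation p was above 0.05. They were Cry2, Rbp2, Gzmk, Cyp1a1, Nfil3, Noct and Cd3d. In 1 gene, Il22, only the permutation p was under 0.05 (0.0436).

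Signs turned for genes near 0: with 1 mouse left out Arnt ran from -0.048 to 0.0086, Cyp1b1 from -0.0014 to 0.12, Cyp1a2 from -0.056 to 0.021, Ptges3 from -0.12 to 0.063, Slc7a5 from -0.022 to 0.052 and Bhlhe40 from -0.021 to 0.051. Ptges3 was at 0.019 with 3 arrays left out and 0.019 with array weights, and with the block Slc7a5 was at -0.021 and Bhlhe40 at -0.022. Of 46 list medians, 6 changed sign with 3 arrays left out, 2 under another normalization or filter and 18 with some mouse left out, all of lists with a median within 0.073 of 0. The causes were not tested. With 4 or 5 mice a group, effects of the size of those near 0 were not detectable.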
